A study of Mus musculus with 167 samples.

Results

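The microRNAs (miRNAs) of the brain were described against those of the lung and the heart of the same sham mice, in 23 brain, 23 lung and 23 heart small-RNA libraries out of 167 libraries in the study. All 23 animals were controls of an experiment on whole-thorax irradiation and received no radiation. The members were the sham animals with a brain library, chosen by tissue, treatment and the animal code in the sample names, and each brain library was paired with the lung and heart libraries of its own animal. The 8 C3H mice were all female, were 10 to 12 weeks old at sham exposure and were sampled in month 4. The 15 C57Bl/6 (C57) mice were 8 males, 8 to 10 weeks old, and 7 females, 10 to 12 weeks old, and were sampled in month 6. Tissues were taken after infusion of phosphate-buffered saline and snap frozen, and 20 mg of homogenised tissue was extracted per library. Strain therefore cannot be told apart from the month of collection, and within C3H no sex comparison was possible. Brain, lung and heart were held in separate tables, so that tissue and any difference in handling between tables cannot be told apart. In homogenised tissue, fewer cells of a type and less of a miRNA per cell cannot be told apart either.

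A miRNA is a short RNA cut from a hairpin precursor, from its 5′ arm (5p) or its 3′ arm (3p), and loaded into an Argonaute protein. It then lowers translation and stability of messenger RNAs that pair with its seed, the bases 2 to 8 from its 5′ end. Tissues differ widely in the miRNAs they hold, and the brain is known for miRNAs of neurons and glia and for a large imprinted miRNA cluster expressed from the maternal copy of the Dlk1-Dio3 domain. Levels below are RPM, the count of a mature mouse miRNA scaled to a library total of 1000000 miRNA counts.

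The sequences of 18 miRNAs that carry the results are shown 5′ to 3′ with the seed in capitals, from RefSeq on the mouse assembly GRCm38.p6. Coordinates are given where the mature miRNA has a single RefSeq locus. The first set was much higher in brain than in lung and heart: the neuronal miR-9 arms, miR-128, miR-137 and miR-138, and the paralogous pairs miR-7a with miR-7b and miR-132 with miR-212, each of which shares its seed.
miR-9-5p: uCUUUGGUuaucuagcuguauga
miR-9-3p: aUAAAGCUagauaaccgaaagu
miR-128-3p: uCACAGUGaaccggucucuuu
miR-137-3p (chr3:118433901-118433923, + strand): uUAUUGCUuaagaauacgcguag
miR-138-5p: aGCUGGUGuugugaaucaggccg
miR-7a-5p: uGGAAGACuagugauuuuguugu
miR-7b-5p (chr17:56243017-56243040, + strand): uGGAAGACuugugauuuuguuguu
miR-132-3p (chr11:75173723-75173744, + strand): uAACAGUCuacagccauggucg
miR-212-3p (chr11:75173443-75173464, + strand): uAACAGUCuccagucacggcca

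The next set shows miRNAs higher in brain outside the neuronal list described below. miR-127 and miR-382 belong to the Dlk1-Dio3 cluster, miR-206 is best known from skeletal muscle, and miR-384-5p has the same seed as miR-30a-5p, which is shown under it and was not higher in brain.
miR-127-3p (chr12:109592888-109592909, + strand): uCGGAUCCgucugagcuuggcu
miR-382-5p (chr12:109733781-109733802, + strand): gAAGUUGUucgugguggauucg
miR-384-5p (chrX:105344332-105344354, - strand): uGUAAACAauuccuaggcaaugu
miR-30a-5p (chr1:23272274-23272295, + strand): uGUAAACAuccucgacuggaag
miR-206-3p (chr1:20679055-20679076, + strand): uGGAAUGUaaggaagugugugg

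The last 4 were lower in brain than in both lung and heart: the cardiac miR-208a, the Hox-gene neighbour miR-10a, and the 3p arms of miR-199a and miR-199b, which have one and the same mature sequence, so that their counts cannot be separated.
miR-208a-3p (chr14:54949072-54949093, - strand): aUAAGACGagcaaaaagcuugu
miR-10a-5p (chr11:96317186-96317208, + strand): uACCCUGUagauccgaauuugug
miR-199a-3p: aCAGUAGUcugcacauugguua
miR-199b-3p (chr2:32318524-32318545, + strand): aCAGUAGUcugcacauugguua

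Total miRNA counts were 1794995 to 3764289 per brain library, 2024219 to 4328330 per lung library and 1944992 to 3647077 per heart library. At these depths, a single count was worth less than 1 RPM. Brain held more kinds of miRNA than the other tissues. At an equal depth of 1794995 counts, the expected number of detected miRNAs was 631.8 ± 12.1 (SD, n = 23) in brain, 471.6 ± 11.7 in lung and 448.9 ± 22.5 in heart, and brain was highest in 23 of 23 animals. Counts were also spread more evenly in brain, where the 10 most abundant miRNAs of a library held 58.7% ± 1.81 (SD, n = 23) of its counts against 74.7% ± 2.38 in lung and 79.6% ± 2.48 in heart. This share was higher in brain in 0 of 23 animals. Each of these 4 paired differences had an adjusted p of 1e-05 in a two-sided paired permutation test, the smallest that 100000 resamples can give, and kept its direction within each strain.

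Of 1915 mature miRNAs in the tables, 465 passed the filter on low counts and were tested. On lung and heart libraries alone 347 of the 465 would pass, and on brain libraries alone 409; a miRNA that passed only through the tissue where it is high had to differ. Of the 347, 116 (33.4%) were higher in brain than in both tissues, and of the 409, 32 were lower than in both, by the calls defined next. Brain was set against the mean log2 RPM of lung and heart of the same animal in a limma-voom fit, and a miRNA was called at a Benjamini-Hochberg adjusted p below 0.05 and a difference of at least 1.17 log2 units. The call was higher in brain for 265 miRNAs (57% of those tested) and lower for 86 (18.5%). Set against each tissue separately, 230 miRNAs (49.5%) were higher in brain than in both lung and heart, 51 (11.0%) were lower than in both, and 19 (4.09%) lay between them. Of the 230, 168 were at least 3 log2 units and 112 at least 5 log2 units higher in brain, and of the 51, 19 were at least 3 log2 units lower. Of the 230, 201 were highest in brain in every animal and 178 had every brain library above every lung and heart library. For the 51, these numbers were 30 and 27. The 230 miRNAs made up 37.2% of all brain counts but 3.22% of lung and 1.86% of heart counts, and the 51 made up 14.9% of brain, 47.3% of lung and 64.1% of heart counts.

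These numbers depend on how libraries are scaled. The median log2 difference over the 465 miRNAs was 1.88 in RPM, 0.98 with TMM factors and -0.33 after quantile normalisation. The split of higher against lower calls was 265 against 86 in RPM, 218 against 121 with TMM and 150 against 188 after quantile normalisation. Under all 3 scalings, 131 miRNAs were above both tissues, 50 were below both and 5 lay between them. Unless stated otherwise, each miRNA described below kept its class under all 3 scalings.

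**Figure D1:**
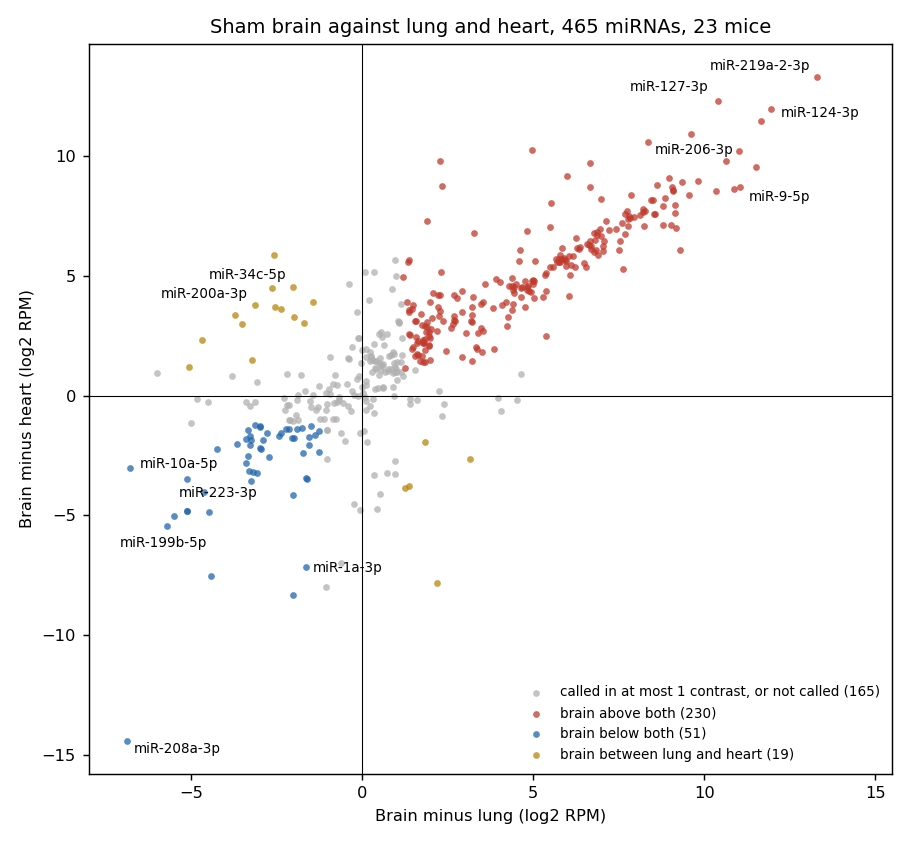
Each point is 1 of the 465 tested miRNAs, with the log2 difference of brain minus lung on the horizontal axis and of brain minus heart on the vertical axis, both from the limma-voom fit in RPM. The 230 miRNAs above both tissues fill the upper right and reach differences beyond 10 log2 units, and the 51 below both, with miR-208a-3p farthest, lie at the lower left.

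The neuronal list held 19 mature miRNAs, and 19 of 19 were above both tissues (against 49.5% of all tested miRNAs), with differences of 4.88 to 11.95 log2 units and a median of 8.83 against 1.88 over all tested miRNAs. With miRNAs that had no count in a whole tissue set to the bound that a floor of 3 counts per library allows, the median was 8.55. Of the 19, 10 would pass the filter on lung and heart libraries alone, and 10 of these 10 were above both, against 33.4% of all such miRNAs. The others were tested through their brain counts, which fixes their direction. For none of the 19 did a brain library overlap with a lung or heart library. Of all 230 miRNAs above both, 178 were likewise without overlap. Together the 19 neuronal miRNAs made up 132785 to 193516 RPM of a brain library, 320.1 to 850.5 RPM of a lung library and 677.9 to 1780.1 RPM of a heart library.

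The most abundant of them was miR-9-5p, which acts in neural progenitors and neurons. Its lowest, median and highest level was 50023, 71731 and 103401 RPM in brain, 13.98, 26.6 and 111 RPM in lung and 97.4, 146 and 472 RPM in heart. The difference was 9.89 ± 0.15 log2 units (SE, n = 23; adjusted p = 9.23e-47, limma), and miR-9-5p took 7.22% ± 1.13 (SD) of brain counts. The opposite arm, miR-9-3p, had 5566, 11217 and 18027 RPM in brain and at most 23.8 RPM in lung and 54.6 RPM in heart. Every brain library was far above every other library for both arms.

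The neuronal miR-128-3p was the next most abundant member, with 40511, 53304 and 78603 RPM in brain against medians of 78.2 RPM in lung and 405 RPM in heart (8.09 ± 0.10 log2 units; adjusted p = 4.34e-49, limma). Lung and heart libraries were thus not empty of it, and heart held more than lung, as it did of miR-9-5p.

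The neuron-defining miR-124-3p, which represses non-neuronal genes, stood at 1081, 3205 and 5927 RPM in brain. Lung had a median of 0.462 RPM and heart of 0.371 RPM, with no count in 6 lung and 7 heart libraries. The difference was 11.95 ± 0.33 log2 units (SE, n = 23; adjusted p = 7.87e-35, limma). Within C57 brain, the 7 females had 1081, 1724 and 3582 RPM and the 8 males 3464, 4626 and 5927 RPM as lowest, median and highest level. The females 1085, 1086, 1087 and 1076 had at most 1724 RPM. Animals 1085, 1086 and 1087 were all of the C57 sham females with letter B in the sample names. The labels do not give its meaning, and for these females letter and individual cannot be told apart. One female reached into the male range, and the sex difference of the brain contrast was 0.72 ± 0.75 log2 units (adjusted p = 0.651, limma), which was not called.

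Further members were less abundant in brain than miR-9-5p and miR-128-3p. The lowest, median and highest brain level was 631, 971 and 1756 RPM for miR-383-5p (11.57 ± 0.22 log2 units), 1853, 2624 and 4602 RPM for miR-129-5p (10.63 ± 0.19), 1912, 3202 and 5223 RPM for miR-137-3p (9.46 ± 0.20), which restrains neuronal maturation, and 4201, 6320.0 and 9577 RPM for miR-138-5p (9.04 ± 0.10), which acts at dendritic spines. miR-383-5p never exceeded 0.908 RPM in lung or 1.79 RPM in heart. For miR-873a-5p, with 55.7, 75.8 and 125 RPM in brain, no count was found in any of the 23 lung libraries, and its mean was at least 88.2-fold higher in brain than a floor of 3 counts per lung library. Likewise miR-129-1-3p, with a brain median of 6.10 RPM, had no count in lung and was at least 7.43-fold above that floor.

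The activity-regulated pair miR-132 and miR-212, cut from neighbouring hairpins at chr11:75173388-75173747, had all 4 mature forms above both tissues by 6.39 to 7.43 log2 units. miR-132-3p had 822, 1622 and 2598 RPM in brain, and miR-212-5p had 949.5, 1674 and 2167 RPM. The 2 forms with the shared seed AACAGUC, shown above, differed in level, with a median of 1622 RPM for miR-132-3p and 129 RPM for miR-212-3p.

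**Figure D2:**
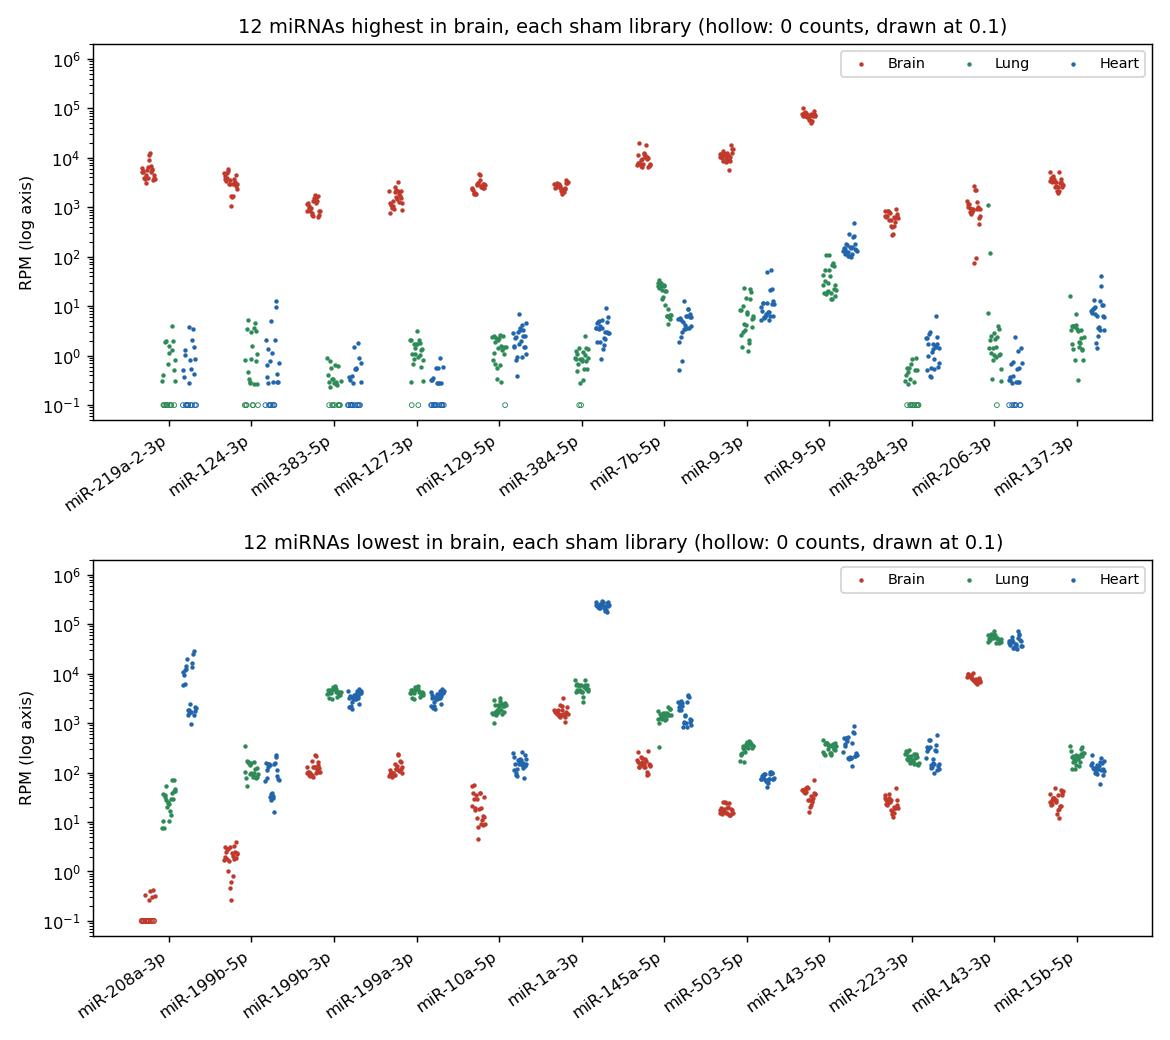
Levels of the 12 miRNAs highest in brain (upper panel) and the 12 lowest (lower panel) in each library on a logarithmic axis of RPM, with brain, lung and heart side by side, 1 point per library; hollow points are libraries with 0 counts, drawn at 0.1 RPM. Brain points of the miRNAs higher in brain lie above all lung and heart points except for miR-206-3p, where 1 lung library reaches 1120.2 RPM.

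The largest difference of all miRNAs with at least 100 RPM in brain was that of miR-219a-2-3p, a miRNA of oligodendrocyte differentiation. It had 3156, 5157 and 12281 RPM in brain and at most 3.97 RPM in lung and 3.84 RPM in heart (13.31 ± 0.30 log2 units; adjusted p = 1.09e-38, limma). The 3 highest levels, 9163, 11195 and 12281 RPM, were those of the C57 females 1086, 1085 and 1087, and the next was 6756 RPM. Of the 4 oligodendrocyte miRNAs in the tables, 3 were tested and 3 were above both tissues (against 49.5% of all tested miRNAs). Only 1 of the 3 would pass the filter on lung and heart libraries alone, and it was above both, against 33.4% of all such miRNAs. The others were tested through their brain counts, which fixes their direction. The level of miR-338-3p, which works with miR-219 in myelinating cells, was 1614, 4111 and 6995 RPM in brain, but lung and heart also held it at medians of 222.2 and 154 RPM, so that its difference was smaller, at 4.38 ± 0.15 log2 units.

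The choroid plexus and retinal epithelium miRNA miR-204-5p was at 824, 1535 and 2819 RPM in brain, 1.27 to 16.2 RPM in lung and 10.6 to 100.3 RPM in heart (6.46 ± 0.14 log2 units). Its 3p arm was above both tissues in RPM and with TMM but not after quantile normalisation. No brain library overlapped with lung or heart for either arm.

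Among the neuroendocrine miRNAs, 3 of 4 were above both tissues in RPM (against 49.5% of all tested miRNAs) and 2 of 4, miR-7a-5p and miR-7b-5p, under all 3 scalings; miR-7a-1-3p lost its class after quantile normalisation. miR-7a-5p and miR-7b-5p, which share the seed GGAAGAC and bind the circular RNA Cdr1as, differed in their selectivity. The level of miR-7a-5p in brain was 16127, 19926 and 43309.5 RPM, with medians of 219 RPM in lung and 46.8 RPM in heart (7.68 ± 0.08 log2 units). For miR-7b-5p the brain level was 6519, 9226 and 19795 RPM, with medians of 20.2 RPM in lung and 4.78 RPM in heart (10.26 ± 0.14 log2 units; adjusted p = 7.96e-48, limma). The 2 highest miR-7b-5p levels, 18502 and 19795 RPM, came from the C3H female 2073 and the C57 male 1052. The fourth, miR-375-3p, known from endocrine cells, lay between the tissues, with 16.7, 33.4 and 765 RPM in brain and medians of 249 RPM in lung and 0.574 RPM in heart. Its highest brain level, 764.6 RPM, was again that of male 1052, and the next highest was 150.5 RPM.

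Of the 12 largest differences, 4 were outside these cell-type lists. miR-384-5p stood at 1876, 2643 and 3519 RPM in brain and at medians of 0.863 RPM in lung and 3.39 RPM in heart (10.52 ± 0.17 log2 units; adjusted p = 2.96e-45, limma), and its 3p arm was higher by 9.75 ± 0.19 log2 units. By contrast, the 3 miR-30 family members found in RefSeq with the same seed, GUAAACA, differed by -0.73 to 0.08 log2 units and were in no class. In brain, miR-30a-5p was at 5585, miR-30c-5p at 4421 and miR-30e-5p at 4002 RPM in the median library, each above miR-384-5p.

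The muscle miRNA miR-206-3p was the least even of the 12. Its lowest, median and highest level was 75.5, 935 and 2730.1 RPM in brain, 0, 1.45 and 1120.2 RPM in lung and 0, 0.322 and 2.36 RPM in heart, and the difference was 9.47 ± 0.46 log2 units (SE, n = 23; adjusted p = 1.61e-24, limma). A single lung library, from the C57 male 1049, was at 1120.2 RPM and overlapped with brain. Brain was above lung and heart in 23 of 23 animals even so. The 2 brain libraries below 100 RPM were those of the C57 female 1076 and the C3H female 2073. The 3 highest, 2223 to 2730.1 RPM, were those of the C57 females with letter B, 1085, 1086 and 1087, which were also highest in miR-219a-2-3p. miR-133b-3p, cut from a hairpin close to that of miR-206 within chr1:20679010-20682887, did not share its pattern, with 0.405, 4.30 and 7.61 RPM in brain, a difference of 0.25 ± 0.22 log2 units and a place between lung and heart in RPM and with TMM.

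The Dlk1-Dio3 cluster on chromosome 12 is an imprinted domain whose miRNAs are expressed from the maternal copy in brain, placenta and embryo. Of its 111 mature miRNAs in the tables, 67 were tested, and 67 of 67 were above both lung and heart (against 49.5% of all tested miRNAs), with a median difference of 6.40 log2 units and a range of 3.78 to 11.36. Of the 67, 23 would also pass the filter on lung and heart libraries alone, and 23 of these 23 were above both, against 33.4% of all such miRNAs; the other 44 were tested through their brain counts, which fixes their direction. Under all 3 scalings, 62 were above both; the exceptions were miR-299a-5p, miR-299a-3p, miR-539-5p, miR-1193-3p and miR-1197-3p. In 66 of the 67 brain was highest in every animal, against 201 of all 230 miRNAs above both. In 65 of the 67 no brain library overlapped with lung or heart, against 178 of the 230. A further 44 members were not tested and were rare, with a brain mean of at most 2.13 RPM; 35 of them had more counts in brain than in lung and heart, and 9 had no count in any of the 69 libraries.

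Summed over the cluster's tested miRNAs, the share of brain counts was 3.88% in the lowest, 4.67% in the median and 5.41% in the highest library. The same sum was 0.0263%, 0.0330% and 0.0478% in lung and 0.0370%, 0.0439% and 0.0627% in heart. The cluster thus held its place within a narrow range in all 23 brains and was low in all lung and heart libraries. Its miRNAs spanned a wide range of levels within brain, from a median of 3.51 RPM to 9929 RPM, with 9 above 1000 RPM and 14 below 10 RPM.

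The most abundant member was miR-382-5p with 7351, 9929 and 13712 RPM in brain and medians of 25.7 RPM in lung and 50.8 RPM in heart (8.07 ± 0.07 log2 units; adjusted p = 7.65e-56, limma). It was followed by miR-379-5p with a brain median of 6881 RPM (6.01 ± 0.07 log2 units), miR-541-5p with 5538 RPM (7.63 ± 0.08), miR-381-3p with 4262 RPM (7.67 ± 0.10) and miR-434-3p with 3331 RPM (8.05 ± 0.11). The most selective was miR-127-3p, processed from the transcript antisense to the imprinted gene Rtl1, at 759, 1458 and 3179.7 RPM in brain, 0, 1.11 and 3.19 RPM in lung and 0, 0 and 0.893 RPM in heart (11.36 ± 0.21 log2 units; adjusted p = 1.46e-42, limma).

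By position, tested miRNAs of the domain fell into 3 runs of hairpins less than 10 kb apart on the + strand of chromosome 12. The run at chr12:109563692-109595388 held 17 tested miRNAs, from miR-770 to miR-136, with a median difference of 6.46 log2 units. That at chr12:109611500-109618336 held 3, miR-341-3p and the 2 arms of miR-370, with a median of 8.08. The run at chr12:109709060-109747960 held 44, from miR-379 to miR-410, with a median of 6.32. The 3 runs held 64 of the 67 tested members, without miR-485-5p, miR-376c-3p and miR-487b-3p. All members of the 3 runs were above both tissues, and the domain supplied most of the 73 such miRNAs among 75 tested on chromosome 12. The median over the 67 members was 6.19 log2 units in C3H and 6.42 in C57, and 0 of the 67 were called in the strain comparison and 0 in the sex comparison, against 1.72% and 3.87% of all tested miRNAs.

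**Figure D3:**
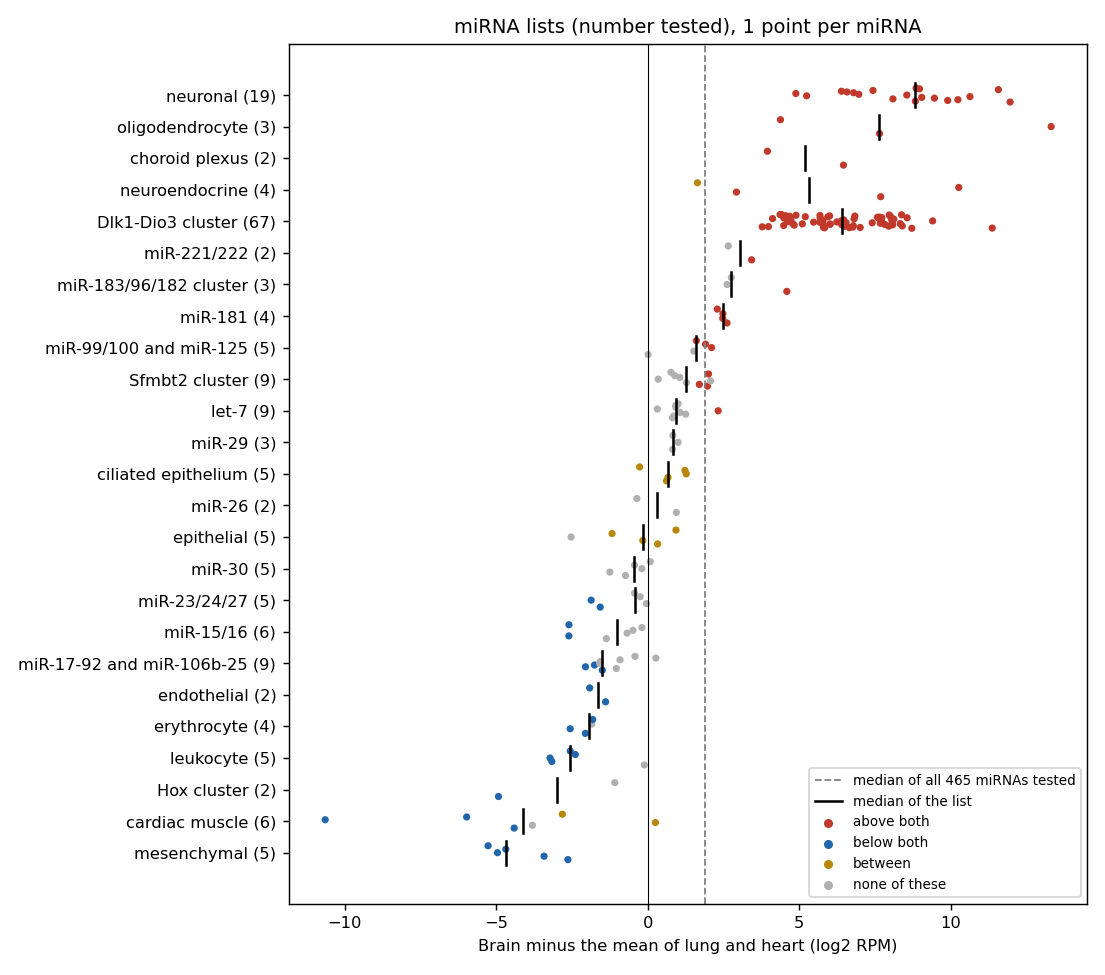
For each list of miRNAs, the points give each tested member's log2 difference of brain minus the mean of lung and heart in RPM, the black bars are list medians and the dashed line is the median over all 465 tested miRNAs. The neuronal, oligodendrocyte and Dlk1-Dio3 lists lie wholly to the side higher in brain, and the mesenchymal, erythrocyte and leukocyte lists to the other.

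Among the miRNAs lower in brain, the cardiac list marked the heart libraries. miR-208a-3p, encoded in an intron of a cardiac myosin heavy chain gene, had 0, 0 and 0.430 RPM in brain, 7.41, 29.3 and 71.2 RPM in lung and 970.4, 5921 and 28318 RPM in heart, and 6 counts over all 23 brain libraries. The difference was -10.64 ± 0.39 log2 units (SE, n = 23; adjusted p = 6.66e-30, limma). The muscle miRNA miR-1a-3p was detected in brain at 1069, 1643 and 3166 RPM, against 2648, 4849 and 7539.5 RPM in lung and 175321, 237634 and 289279 RPM in heart (-4.41 ± 0.09 log2 units). Brain was lowest in each animal for both, although for miR-1a-3p the brain and lung libraries overlapped. Of the 6 cardiac miRNAs, 3 were below both tissues (against 11.0% of all tested miRNAs). Only 4 of the 6 would pass the filter on brain libraries alone, and 1 of these 4 was below both, against 32 of all 409 such miRNAs. The others were tested through their lung or heart counts, which fixes their direction. miR-499-5p, encoded in another myosin gene, was higher in brain than in lung, with 7.17, 20.7 and 60.2 RPM against a lung median of 2.28 and a heart median of 4954 RPM, and lay between the tissues in RPM and with TMM.

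miRNAs of fibroblasts and smooth muscle were lower in brain throughout, with 5 of 5 below both tissues (against 11.0% of all tested miRNAs) and a median difference of -4.68 log2 units. Of the 5, 3 would pass the filter on brain libraries alone, and 3 of these 3 were below both, against 32 of all 409 such miRNAs. The others were tested through their lung or heart counts, which fixes their direction. miR-199a-3p stood at 83.0, 113 and 233 RPM in brain, 3085, 4272 and 5625 RPM in lung and 1909, 3267 and 4919.6 RPM in heart (-4.96 ± 0.08 log2 units; adjusted p = 3.25e-44, limma), and the identical miR-199b-3p at 80.3, 105 and 223 RPM in brain. The separable miR-199b-5p was lower by a similar size, at -5.57 ± 0.20 log2 units. In the smooth muscle cluster of miR-143 and miR-145, miR-143-3p had 6128, 7794 and 10350.2 RPM in brain, 41731, 51685 and 74277 RPM in lung and 31409, 43797 and 73902 RPM in heart (-2.63 ± 0.06 log2 units), and the differences of miR-143-5p and miR-145a-5p were -3.20 ± 0.13 and -3.42 ± 0.16 log2 units. No brain library reached into the lung or heart range for any of these.

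miR-10a-5p, encoded among the Hoxb genes that pattern the trunk, was at 4.58, 18.9 and 56.0 RPM in brain, 1012, 2084 and 3166 RPM in lung and 76.3, 150.2 and 256 RPM in heart (-4.92 ± 0.16 log2 units; adjusted p = 1.02e-31, limma). The brain libraries lay below all others, and lung stood far above heart. Its relative miR-10b-5p had 22.0 RPM in the median brain library and was not in a class in RPM (-1.09 ± 0.14 log2 units), but was below both tissues with TMM and after quantile normalisation.

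The endothelial miR-126a-3p was lower in brain than in lung and heart and still the most abundant miRNA in brain. Its level was 91958, 131253 and 163619 RPM in brain, 195541, 370681 and 425090.0 RPM in lung and 261110.0, 309201 and 352299 RPM in heart, without overlap (-1.39 ± 0.05 log2 units; adjusted p = 2.23e-30, limma). This direction was lost after quantile normalisation (0.04 log2 units), which gives the same rank the same value in all libraries. The 5p arm, at 3566, 6092 and 10670.0 RPM in brain and medians of 25939 RPM in lung and 19862 RPM in heart, was below both under all 3 scalings (-1.91 ± 0.12 log2 units in RPM).

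Blood-cell miRNAs were also lower in brain. Of the 4 erythrocyte miRNAs, 3 were below both tissues (against 11.0% of all tested miRNAs, as for the leukocyte list), and the list summed to 31.5 to 441.3 RPM in brain, 105.9 to 2121 RPM in lung and 339.6 to 2740.0 RPM in heart. The erythroid miR-451a had 5.84, 23.9 and 147 RPM in brain, 23.02, 88.8 and 561 RPM in lung and 36.5, 159 and 882 RPM in heart (-2.06 ± 0.27 log2 units), and these ranges overlapped. Of the 5 leukocyte miRNAs, 4 were below both; the myeloid miR-223-3p was at 12.8, 23.1 and 48.6 RPM in brain and at medians of 198 RPM in lung and 195 RPM in heart (-3.16 ± 0.13 log2 units), without overlap. The lymphoid miR-150-5p differed little, at -0.11 ± 0.11 log2 units. Residual blood in the tissues was not measured, and its part in these differences was not tested.

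Most miRNAs of a cluster on the X chromosome were below both tissues. At chrX:53047997-53054349 on the - strand lie 11 tested miRNAs from the hairpins of miR-450b, miR-450a, miR-542, miR-351, miR-503 and miR-322, 1 of which has a second locus. Of these, 10 were below both tissues (against 11.0% of all tested miRNAs), and differences over the 11 were -3.23 to -1.85 log2 units. The exception, miR-351-5p, was called lower than lung but not lower than heart in RPM, and was below both with TMM and after quantile normalisation, with medians of 3.97 RPM in brain, 37.2 RPM in lung and 5.24 RPM in heart. miR-503-5p and miR-322-5p are known to restrain cell-cycle genes. miR-503-5p was at 13.6, 17.3 and 25.1 RPM in brain, 166, 343 and 439.9 RPM in lung and 51.2, 75.8 and 103 RPM in heart (-3.23 ± 0.09 log2 units; adjusted p = 4.11e-35, limma). Its brain libraries lay below all others, as for 5 of the 11 and for 27 of all 51 miRNAs below both. Related in seed to miR-322-5p, miR-15b-5p was at 12.3, 27.8 and 47.6 RPM in brain and lower by a similar size (-2.60 ± 0.11 log2 units). The cluster of miR-23a, miR-27a and miR-24-2 at chr8:84208518-84208921 had 4 of its 5 tested miRNAs below both tissues, again against 11.0%. The fifth, miR-24-3p, which has a second locus on chromosome 13, was in no class in RPM (-0.43 ± 0.06 log2 units) and below both with TMM and after quantile normalisation.

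Of the 10 most abundant, 3 were above both tissues in RPM (miR-9-5p, miR-128-3p and miR-103-3p), 1 was below both (miR-126a-3p), and 6 were in no class, against 49.5% above both and 11.0% below both over all tested miRNAs. Of the 6, miR-16-5p differed by -0.68 ± 0.07 log2 units in RPM and was called lower in brain with TMM (-1.58) and after quantile normalisation (-1.56). let-7f-5p, of the family that marks differentiated cells, stood at 61124, 75044 and 81457 RPM in brain, 47022, 56431 and 79807 RPM in lung and 52151, 61745 and 77105 RPM in heart. These ranges overlapped, and its small difference of 0.32 ± 0.04 log2 units turned to -0.58 with TMM. Of the 9 let-7 family members, let-7e-5p was above both, in RPM alone (2.32 ± 0.06 log2 units). miR-103-3p, known in lipid and glucose metabolism, had 25803, 32307 and 36918 RPM in brain and medians of 10228 RPM in lung and 2979.9 RPM in heart (2.57 ± 0.06 log2 units), above both in RPM but not in a class with TMM or after quantile normalisation.

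Some further families held members above both tissues in RPM that did not keep this class under other scalings. For the miR-181 family, which has 1 seed, ACAUUCA, 4 of 4 members were above both in RPM (against 49.5% of all tested miRNAs), with a median difference of 2.48 log2 units, but 1 of them remained so with TMM and 0 after quantile normalisation. Its most abundant member, miR-181a-5p, had 6033, 11165 and 16406 RPM in brain and medians of 4105 RPM in lung and 712 RPM in heart. Of the miR-99/100 and miR-125 families, 3 of 5 were above both in RPM, close to the 49.5% of all tested miRNAs, among them the neural miR-125b-5p at 15804, 21090.4 and 59846 RPM in brain (1.61 ± 0.13 log2 units), and 0 under all 3 scalings. Of the 9 tested miRNAs of the Sfmbt2 cluster, 3 were above both in RPM, a smaller share than the 49.5%, and 0 under all 3 scalings. The miR-26 and miR-29 families, present at a summed median of 53163 and 49744 RPM in brain, had no member in a class in RPM. miR-221-3p, in contrast, was above both under all 3 scalings, with 913, 2019 and 2955 RPM in brain and a difference of 3.43 ± 0.09 log2 units.

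Seeds were compared for the 401 tested miRNAs with a RefSeq sequence, which carried 327 seeds, 44 of them in more than 1 tested miRNA. For 7 of the 44 all tested members were above both tissues, among them those of miR-7, miR-132/212, miR-181 and miR-103/107, and for 4 all were below both, those of the 3p arms of miR-199, miR-208, miR-19 and miR-450. For 3 seeds, of the miR-200 and miR-34 families, all members lay between lung and heart, and for 8 all were in no class. For the other 22 the members differed in class or only some had one, as for miR-384-5p and miR-30, and a single seed, CAGUGCA, had members above both and below both.

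Of the 19 miRNAs between lung and heart in RPM (4.09% of those tested), 5 stayed between under all 3 scalings. The epithelial and ciliated-cell lists held 9 of the 19, out of 10 listed miRNAs tested, and these 9 lay above heart and below lung. All 5 of the ciliated-cell list were between the tissues in RPM and 2 of them, the arms of miR-34c, under all 3 scalings. miR-34c-5p, a miRNA of multiciliated cells, had 850.1, 1283 and 2049 RPM in brain, 2814, 6656 and 10652 RPM in lung and 22.9, 52.2 and 141 RPM in heart. It was higher in brain than in heart by 4.56 ± 0.13 log2 units and lower than in lung by -2.02 ± 0.12 (adjusted p = 3.13e-34 and 2.99e-21, limma), with 3 separate ranges. The metabolic miR-378a-3p lay between the tissues the other way, with 498, 969 and 2268 RPM in brain, above a lung median of 372 and below a heart median of 12877 RPM, in RPM alone.

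The epithelial miR-200 family was the most variable in brain. Among miRNAs with at least 100 RPM in brain, the 5 with the largest spread between brain libraries of a strain were miR-200a-3p, miR-429-3p, miR-141-3p, miR-200b-3p and miR-183-5p, with within-strain SDs of 2.92, 2.70, 2.66, 2.62 and 2.196 log2 units. The level of miR-200a-3p, which holds cells in an epithelial state, was 124, 1200.1 and 32359.8 RPM in brain, 5944, 14020.1 and 21251 RPM in lung and 37.9, 90.9 and 539.7 RPM in heart. Some brain libraries were thus at heart levels and some above the highest lung library. In C3H females the lowest, median and highest brain level was 149.6, 1237 and 23439 RPM, in C57 females 209.5, 8673 and 32360 RPM, and in C57 males 123.5, 214.8 and 1367 RPM. More than 1000 RPM was reached by 4 of 8 C3H females, 6 of 7 C57 females and 2 of 8 C57 males.

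The sensory and neuroendocrine miR-183 cluster varied with it. miR-183-5p was at 808.2, 1772 and 23366 RPM in the brains of C3H females, 379.0, 7546 and 28387 RPM in those of C57 females and 337.4, 522.5 and 1209 RPM in those of C57 males. The 4 brain libraries highest in miR-200a-3p, from the females 1075, 1076, 2074 and 1085, were also the 4 highest in miR-183-5p. In RPM, miR-183-5p was above both lung and heart, with medians of 619.6 and 12.4 RPM there (4.59 ± 0.31 log2 units), but this class was lost with TMM and after quantile normalisation.

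**Figure D4:**
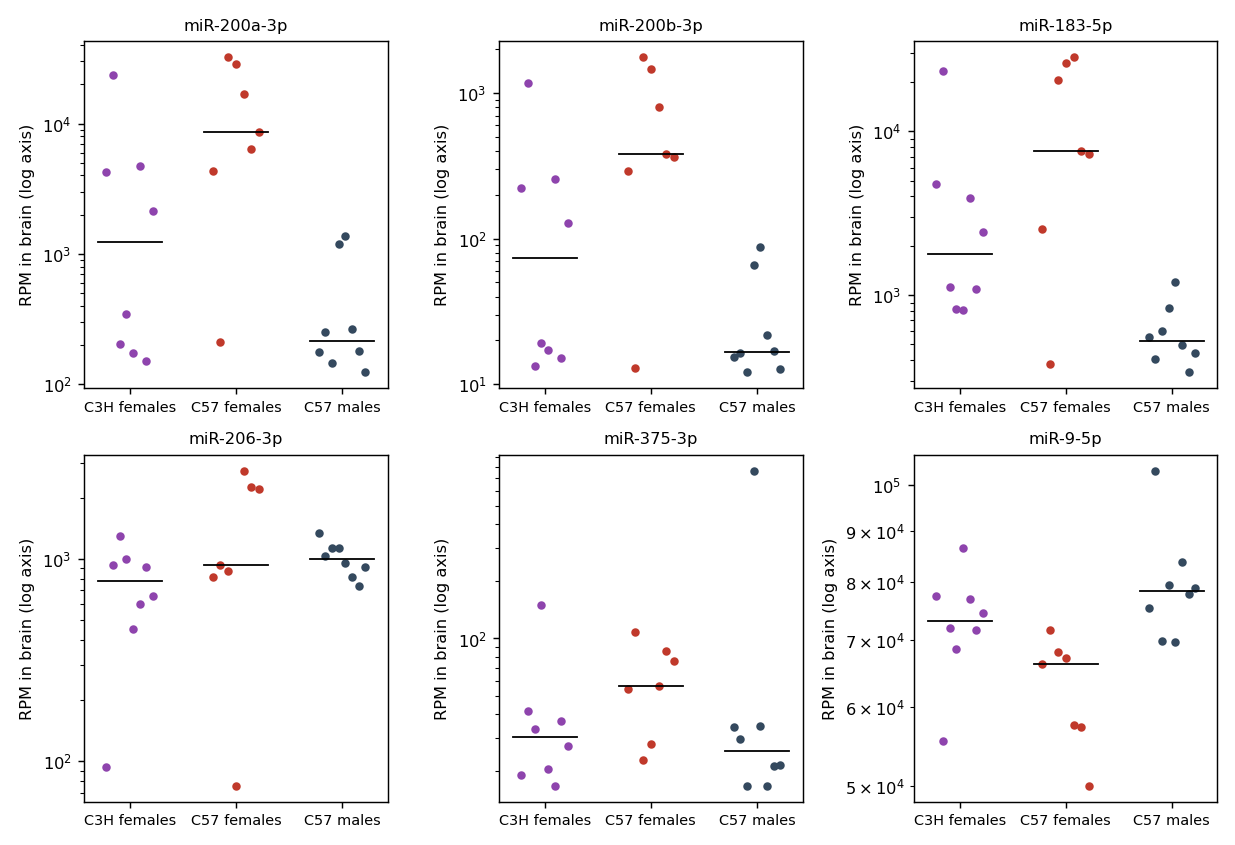
Levels of miR-200a-3p, miR-200b-3p, miR-183-5p, miR-206-3p, miR-375-3p and miR-9-5p in each brain library on a logarithmic axis of RPM, 1 point per animal with the median as a line, split into C3H females, C57 females and C57 males. For miR-200a-3p, C3H females spread from 149.6 to 23439 RPM and C57 females from 209.5 to 32360 RPM, whereas C57 males stay between 123.5 and 1367 RPM.

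Males and females were compared within C57, the only strain with both, as the difference between the sexes in the brain contrast. The males were also younger at sham exposure, so that sex cannot be told apart from age. The difference was called for 18 of 465 miRNAs (3.87%), 3 higher and 15 lower in males. The 5 with the smallest adjusted p were miR-200b-3p (-4.34 ± 0.59 log2 units, males minus females; adjusted p = 5.73e-06, limma), miR-141-3p (-4.68 ± 0.62; adjusted p = 5.73e-06), miR-183-5p (-3.40 ± 0.48; adjusted p = 6.25e-06), miR-200a-3p (-4.69 ± 0.65; adjusted p = 6.25e-06) and miR-429-3p (-4.36 ± 0.64; adjusted p = 1.14e-05). Lung and heart levels stood closer together: miR-200a-3p had a median of 19227 RPM in male and 17789 RPM in female lung, and of 75.8 and 95.4 RPM in heart. The brain medians were 215 RPM in males and 8673 RPM in females. The females 1085, 1086 and 1087, all of the C57 females with letter B, stood apart in miR-219a-2-3p and miR-206-3p. Without them, 14 miRNAs were called and the same 5 differed by -4.63 to -3.06 log2 units. The sexes overlapped in brain, since the female 1074 was within or below the male range for all 5 miRNAs.

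Mature forms of the miR-200 family and the miR-183 cluster made up 10 of the 18 calls, all of them lower in males. The remaining calls were in miRNAs outside these clusters. miR-208a-3p (-1.79 log2 units) had no count in most brain libraries of both sexes, and its heart median was 11349 RPM in males and 1675 RPM in females. miR-10a-5p (1.28 log2 units) had a median of 32.0 RPM in male and 18.3 RPM in female brain and of 1583 and 2358 RPM in lung. What the dissected brain tissue of each animal included was not recorded in the labels, and its part in the miR-200 and miR-183 differences was not tested.

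The difference of the brain contrast between C57 and C3H set the all-female C3H against C57 of both sexes and was called for 8 of 465 miRNAs (1.72%), 6 of them higher in C57. For miR-135a-5p the difference of -2.57 ± 0.29 log2 units (adjusted p = 6.34e-09, limma) came with heart and lung levels. Heart levels were 5.20, 8.28 and 11.9 RPM in C3H and 61.8, 106 and 185 RPM in C57, without overlap, and the lung medians were 2.46 and 4.36 RPM. In brain, C3H had 1816, 2048 and 2703 RPM and C57 733, 2212 and 2875 RPM, and miR-135a-5p was above both tissues in each strain. For miR-216a-5p (2.17 ± 0.46 log2 units; adjusted p = 0.00129, limma) the heart medians were 4.65 RPM in C3H and 0.574 RPM in C57, against brain medians of 83.5 and 89.1 RPM.

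For other miRNAs the strains differed in brain itself. miR-20b-5p was at 2.15, 5.24 and 7.29 RPM in C3H brain and 11.4, 15.3 and 24.8 RPM in C57 brain, without overlap, while the lung medians were 24.8 and 25.9 RPM (2.07 ± 0.41 log2 units; adjusted p = 0.000575, limma). This fitted value sets brain against lung and heart together, so it is not the difference in brain alone. miR-1969 was at 0, 1.57 and 3.57 RPM in C3H brain and 6.78, 12.4 and 16.2 RPM in C57 brain, again without overlap (2.41 ± 0.47 log2 units; adjusted p = 0.000575), and was above both tissues in RPM and with TMM. This strain difference was not called with edgeR (1.399 log2 units). miR-342-5p had no count in any of the 24 C3H libraries and 1.24, 3.71 and 5.39 RPM in C57 brain (2.56 ± 0.36 log2 units; adjusted p = 1.37e-06). The fitted value for miR-342-5p depends on the count added to the zeros and gives no bound on the fold, and the call was lost with edgeR, where the difference stayed at 2.19 log2 units, and after quantile normalisation, where it was 0.29. Its abundant arm, miR-342-3p, was named after its values were seen: it was at 144, 181 and 245 RPM in C3H brain and 784, 1007 and 2179 RPM in C57 brain, without overlap, but its strain difference in the brain contrast, 0.97 ± 0.30 log2 units (adjusted p = 0.0442, limma), was below the minimum of 1.17 log2 units.

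The use of the 2 hairpin arms was compared through the ratio of the 5p to the 3p count, which does not depend on the scaling. Of 61 hairpins with enough counts, 6 (9.84%) had a ratio in brain that differed from the mean of lung and heart by at least 1.17 log2 units, all toward the 3p arm. The largest shift was that of miR-106b, a cell-cycle miRNA, whose 3p arm took 56.1%, 81.1% and 93.6% of its counts in the lowest, median and highest brain library, with medians of 44.4% in lung and 35.7% in heart (-2.86 ± 0.22 log2 units; adjusted p = 1.83e-11, limma). The direction was the same in 23 of 23 animals, although the ranges of the tissues overlapped. miR-106b counts were low, at a mean of 37.8 for the 5p and 155.5 for the 3p arm per brain library.

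For miR-30a the 3p arm took 15.8%, 19.1% and 22.7% of the counts in brain, a median of 4.70% in lung and a median of 16.8% in heart (-1.21 ± 0.07 log2 units; adjusted p = 4.92e-14, limma). Its brain range lay above that of lung and overlapped with that of heart. The other 4 called hairpins kept the 5p arm as the main one in every tissue. They were miR-145a (-1.62 log2 units), with a mean of 1.91 counts of the 3p arm per brain library, miR-30b (-1.20), miR-339 (-1.19) and miR-195a (-1.17), in which the 3p arm had a median of 6.89% in brain, 2.70% in lung and 4.02% in heart. In C57 alone, miR-195a (-0.89) and miR-339 (-1.15) fell short of the minimum. With a minimum of 10-fold, 0 of the 61 were called. The adjusted p alone was passed by 35 hairpins, 23 shifted toward the 3p arm and 12 toward the 5p arm in brain, the latter by up to 1.13 log2 units (let-7d).

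**Figure D5:**
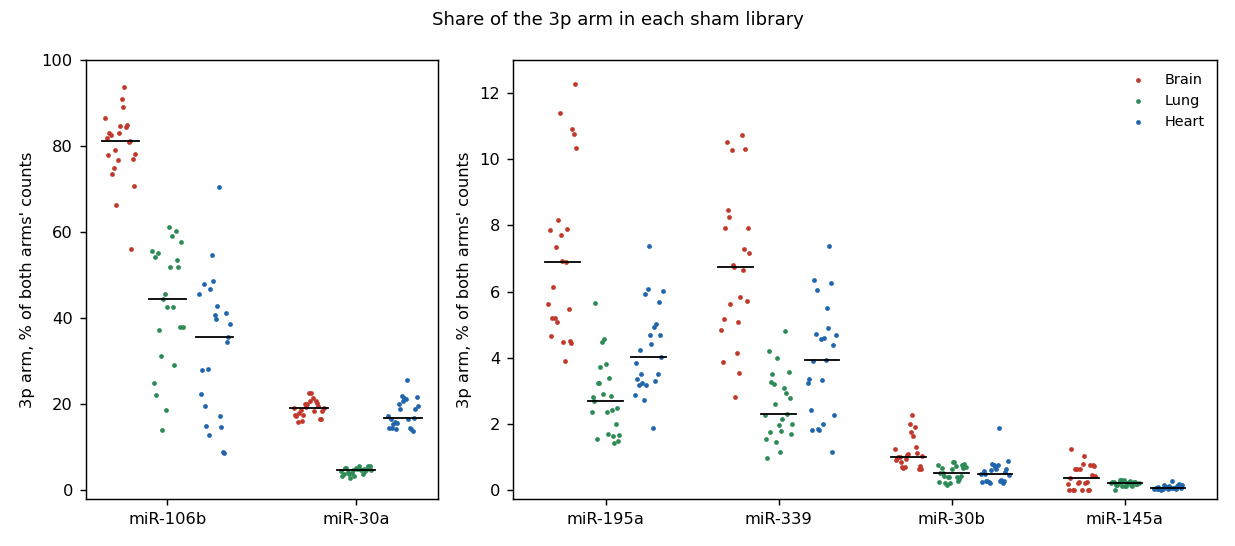
Share of the 3p arm in the counts of each called hairpin, in percent, with 1 point per library in brain, lung and heart, medians as lines, and separate panels for hairpins with a large and a small 3p share. Brain points of miR-106b lie between 56.1% and 93.6%, mostly above lung and heart, while for miR-30a lung alone stands apart.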

How the data were processed

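Small-RNA libraries (QIAseq miRNA Library Kit, 22 amplification cycles) were made from brain, lung and heart. The authors trimmed the reads, aligned them to mouse miRNAs (mm10) and deposited raw counts per mature miRNA and library; values were not normalised. Whether molecular identifiers were collapsed is not given in the sources used here, so intervals between animals rather than counting error were used throughout. Columns were matched to samples by name, and irradiated, plasma and blood-cell libraries were not analysed here. Total counts were 1794995 to 4328330 per library.

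Counts were filtered with filterByExpr (minimum 10) and tested in limma-voom (limma 3.58.1, edgeR 4.0.16, R 4.3.3) with library totals as the only scaling, tissue within strain, and the animal as a fixed term. Calls needed a Benjamini-Hochberg adjusted p below 0.05 and a difference of at least 1.17 log2 units. Pairing came from the animal code in the sample names; deviations of same-animal brain and lung libraries had a median correlation of 0.07, against -0.01 between animals. The closest pair of replicate libraries still differed beyond counting noise (chi-square of 17.8 per degree of freedom). The arm test used limma with trend on per-animal log2 ratios after adding 0.5 counts, for hairpins with at least 50 counts in every library. Detection and count shares were tested by permutation (sign flips within animals). The brain contrast with limma, edgeR and DESeq2 and the arm test were tested on simulated data. Alternatives were TMM, quantile normalisation, edgeR, DESeq2 1.42.0, other filters and fold minimums, subsets of animals and leaving out each animal; C57 males alone, C57 females alone and leaving out the C57 females 1085 to 1087 were added after seeing the data.

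Named miRNAs were the 12 highest and 12 lowest in brain among those in a class with a mean of at least 100 RPM (in brain, or in lung or heart), the 10 most abundant in brain, examples from the lists, the 5 smallest adjusted p in the strain and sex comparisons, up to 6 arm shifts, and the 5 most abundant between tissues and most variable in brain. The miRNAs miR-351-5p, miR-24-3p and miR-7a-1-3p and the hairpin let-7d were named after their values were seen. Members and lists were chosen with earlier results of these data known. Sequences and positions came from RefSeq (GRCm38.p6), which matched 401 of the 465 tested miRNAs.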

Additional observations from a re-analysis of the deposited data

Results flagged for a closer look

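In 4 of 45 tests of the 8 C3H brains, a single library lay farther from the others than Dixon's 95% limit for 8 samples (a gap over 0.526 of the group's range, both on the log2 scale), which chance alone gives in about 1 in 20 groups. The C3H female 2073 was high in miR-7b-5p (18502 RPM, next 10240 RPM; gap 0.572 of the log2 range) and low in miR-206-3p (93.5 RPM, next 452.0 RPM; gap 0.597). The C3H female 2085 was high in miR-143-5p (72.2 RPM, next 38.6 RPM; gap 0.600) and low in let-7f-5p (61264 RPM, next 74074 RPM; gap 0.666). The causes were not tested.

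The strains differed in the brain contrast by an interaction test (C57 minus C3H, log2 units) in miR-135a-5p (-2.57), miR-342-5p (2.56), miR-20b-5p (2.07), miR-1969 (2.41) and miR-216a-5p (2.17). The sexes of C57 differed in it (males minus females) in miR-200b-3p (-4.34), miR-141-3p (-4.68), miR-183-5p (-3.40), miR-200a-3p (-4.69) and miR-429-3p (-4.36). Strain cannot be told apart from month of collection, nor sex from age at sham exposure. With edgeR, miR-342-5p and miR-1969 were not called between strains.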

How the results depend on the processing

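Depth limits miRNAs below about 1 RPM, and tissue, table and, between strains, month of collection cannot be told apart. Called miRNAs numbered 351, 341 and 368 for brain against lung and heart, lung, and heart. A minimum of 10 counts in every library left 170 miRNAs, with 105 (67 higher, 38 lower), 101 (61, 40) and 116 (81, 35) called and 57 above both, 26 below both and 4 between; a 10-fold minimum gave 173 (158, 15), 183 (157, 26) and 211 (187, 24), and 143, 9 and 1. Quantile normalisation gave 150 higher and 188 lower, 149 and 192, and 165 and 170, and 131, 142 and 12. Lower in brain than in heart were 117 with TMM, 118 with edgeR and 127 with DESeq2; below both were 87, 88 and 91, and 79 without a fold minimum, where 46 lay between.

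The strain difference gave 4 calls with edgeR and with DESeq2, 0 with a 10-fold minimum and 0 with the strict filter (limma, edgeR and DESeq2 alike, with 36, 40 and 46 at an unadjusted p below 0.05 and 16, 14 and 21 at an adjusted p below 0.05, short of the fold minimum), 14 against the arithmetic mean, 15 in females alone, 24 and 72 in the animals with letter A or B in their names, and 26 with no fold minimum. The sex difference gave 10 with edgeR, and 28 or 8 with no or a 10-fold minimum. Arm shifts numbered 3 at a count minimum of 200, 35 with no fold minimum and 0 at 10-fold. At the count minimum of 200 only 34 hairpins were tested. The called miR-106b, miR-339 and miR-195a, with lowest summed counts of 51, 71 and 194, were not among them. Causes were not tested.

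Directions reversed for miR-126a-3p with quantile normalisation (0.036), let-7f-5p with TMM, edgeR and DESeq2 (-0.58, -0.59 and -0.65), let-7a-5p with the same (-0.080, -0.086 and -0.15), miR-26a-5p (-0.015) and let-7i-5p (-0.038) with DESeq2, and, with quantile normalisation, miR-378a-3p against lung (-0.29) and miR-141-3p against heart (-0.082). Calls were lost for let-7c-5p with TMM, quantile normalisation, edgeR, DESeq2, the arithmetic mean, letter B alone and C57 males alone (0.35, 0.86, 0.37, 0.30, 0.96, 1.15 and 1.11) and for miR-378a-3p against lung with TMM, edgeR and DESeq2 (0.62, 0.67 and 0.74), and gained for miR-16-5p with TMM, quantile normalisation, edgeR and DESeq2 (-1.58, -1.56, -1.57 and -1.63) and for miR-26a-5p in C57 males alone (1.29). Of 1918 such comparisons over 59 named results, 1883 kept direction and call. The total includes leaving out each of the 23 animals, with 48 comparisons each and 0 changed. All changes fell in the other settings.

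Leaving out each animal in turn gave 347 to 355 calls for brain against lung and heart (263 to 270 higher, 81 to 87 lower), 340 to 344 for lung, 365 to 372 for heart, 228 to 232 above both, 49 to 53 below both, 18 to 20 between and 6 to 10 for strain. Without the animal as a block (no pairing), 350 miRNAs were called (265 higher, 85 lower) and 6 for strain, and the other counts moved as little. C57 males or females alone, added after seeing the data, gave 269 and 272 higher and 89 and 76 lower; in females alone miR-200a-3p and miR-429-3p against lung were no longer called (-0.95 and -0.60), nor in males alone miR-141-3p against heart (0.70) and miR-378a-3p against lung (1.11). Leaving out the C57 females 1085 to 1087, also added then, gave 267 higher, 85 lower, 7 for strain and 14 for sex.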
